A study of Mus musculus with 2 samples.

Results

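Id1, Id2, Id3 and Id4 encode inhibitors of DNA binding, and their mRNAs were examined for N6-methyladenosine (m6A) in day 6 mouse retinal organoids. Rows were taken by gene name from the modification tables of 2 libraries. The genes had been chosen by the measured site counts and fractions of an earlier look at these tables, and sites were selected on coverage, so site counts and levels are given as descriptions without a test. The 4 genes held 31 of the 57784 positions listed in either library, on 5 of 11386 transcripts. A position with at least 20 reads in a library counts as a site there. A shared site has at least 20 reads in both libraries, and the Id genes held 21 of 5221 such sites.

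The study concerns METTL3, the m6A methyltransferase, in retinal development. Both libraries came from wild-type Rx:GFP organoids, grown from a mouse line that carries a green fluorescent reporter named for the eye-field gene Rx. Cells had been cultured with the agent labelled AGN at 0.1 µM for 6 days, and 1 µg of poly(A) RNA per library was sequenced as native RNA for about 48 h. The libraries form 1 group with n = 2 and carry the same batch label. No other genotype, treatment or time was compared, and whether the replicates came from separate cultures is not given, so their spread may be technical. As a check of the tissue label, 10 of 12 retinal progenitor markers had a listed position in at least 1 library, against 0 of 7 pluripotency markers, 3 of 5 of pigment epithelium, 1 of 6 of neurons and 1 of 6 of mesenchyme or neural crest. None of the last 4 lists reached 20 reads at any position in either library, but a gene could be listed only at a scored motif, so these counts are not expression levels.

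Id proteins have a helix-loop-helix domain and lack the basic region that contacts DNA. They bind E proteins such as Tcf3 and keep them from pairing with tissue-specific basic helix-loop-helix factors, and Id genes are well-known targets of bone morphogenetic protein (BMP) signalling through Smad proteins. In neural tissue they are known for holding progenitors in an undifferentiated state. The mark m6A is written on nascent mRNA by a complex with the catalytic subunit METTL3, and YTH-domain proteins that bind it are known to speed mRNA decay.

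The measurement at each position was the fraction modified, between 0 and 1, given with the coverage in reads. Every listed position lay on a motif of 5 bases with a central AC, written below in DNA letters as deposited. The scored motifs were these, and each is shown with its share of the Id shared sites because sites are compared within their motif below.

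GGACT: 8 of the 21 Id shared sites, against 23.8% of all shared sites.

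AGACT: 7 of the 21 Id shared sites, against 15.6% of all shared sites.

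GGACC: 5 of the 21 Id shared sites, against 22.3% of all shared sites.

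GGACA: 1 of the 21 Id shared sites, against 38.3% of all shared sites.

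GGACA, the motif with the highest median fraction over all shared sites (0.680), had few listed Id positions. It made up 3 of the 31 listed Id positions, against 33.1% of all listed positions. Sites on the pair of Id2 transcripts repeat the same bases. With 1 Id2 transcript, GGACA made up 1 of 13 sites. Which bases of these transcripts were examined and not listed is unknown.

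**Figure D1:**
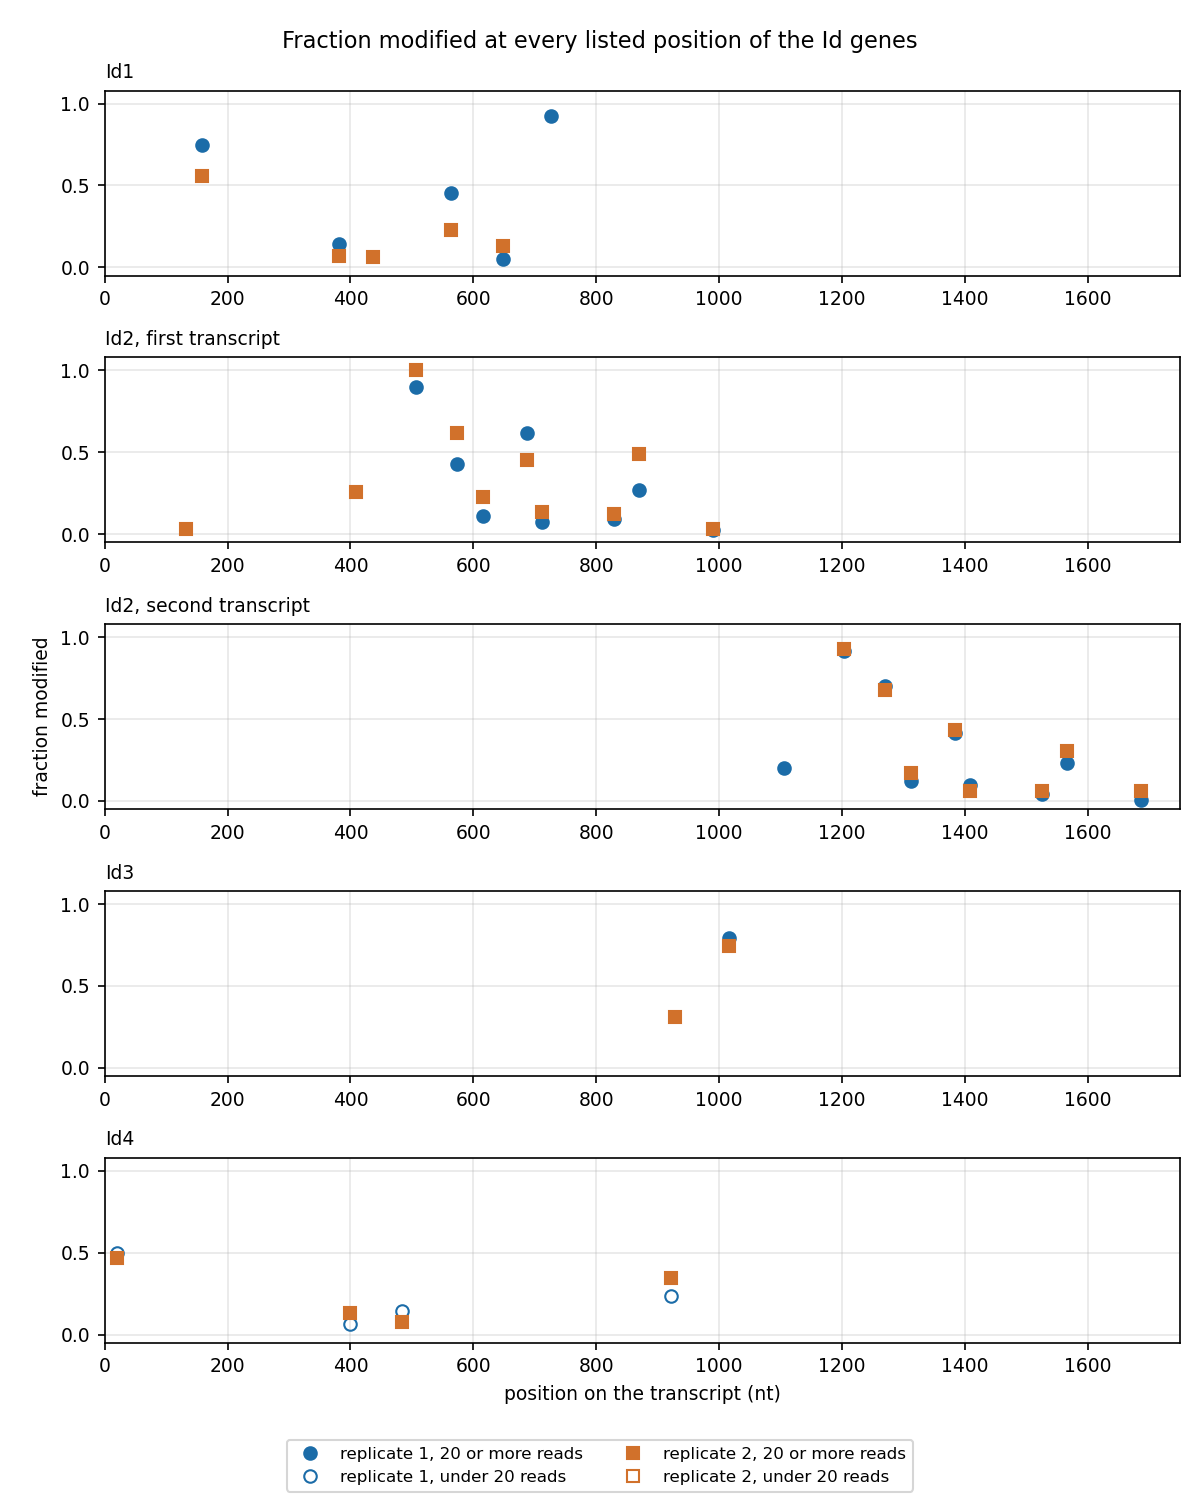
Fraction modified (vertical axis, 0 to 1) against position on the transcript in nucleotides, for all 31 listed positions of Id1, Id2, Id3 and Id4. Circles are replicate 1 and squares replicate 2, and open symbols have under 20 reads. The Id2 sites run from 0.950 down to 0.0299 in mean fraction, and the Id4 positions of replicate 1 all have under 20 reads.

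Id2 carried 16 of the 21 shared sites. They lie 8 each on 2 transcripts, ENSMUST00000020974.6 (called the first here) and ENSMUST00000221761.1 (the second). The gene was placed on chromosome 12, 25143798 to 25147139, in the coordinates of the deposited tables. On the second and deeper transcript, coverage at the shared sites was 133 to 142 reads in replicate 1 and 247 to 274 reads in replicate 2. Its fractions covered nearly the whole scale, from near-complete to near-zero.

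The highest site of the second transcript was a GGACT at position 1203, with a fraction of 0.918 in replicate 1 and 0.928 in replicate 2. An AGACT at position 1270 followed with 0.7 and 0.679. A GGACT at position 1384 had 0.414 and 0.433. These 3 sites did not overlap each other in either library, and each was separated from the next by far more than the gap between its own replicates.

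The lower sites of that transcript were less sharply ordered. A GGACC at position 1567 had 0.235 in replicate 1 and 0.304 in replicate 2, above a GGACC at position 1313 with 0.124 and 0.171. An AGACT at position 1409 had 0.0968 and 0.0617, an AGACT at position 1526 had 0.0410 and 0.0631, and a GGACT at position 1687 had 0.0088 and 0.0591. The ranges of positions 1409 and 1526 overlapped, as did those of 1526 and 1687, so these neighbours cannot be ranked. Position 1409 lay above 1687 in both libraries, but in replicate 2 they were nearly equal at 0.0617 and 0.0591.

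The means on this transcript were 0.923 ± 0.00700 at position 1203, 0.689 ± 0.0149 at 1270, 0.424 ± 0.0133 at 1384, 0.269 ± 0.0491 at 1567 and 0.147 ± 0.0334 at 1313 (each SD, n = 2). Among sites of the same motif in other genes, position 1203 stood at percentile 96.5 and position 1687 at percentile 3.24, both GGACT. Position 1270 stood at percentile 89.1 and position 1526 at percentile 6.18, both AGACT. The GGACC sites at 1567 and 1313 were nearer the middle, at percentiles 57.5 and 32.5.

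On both transcripts the GGACT sites fell along the RNA in the 5′ to 3′ direction. On the second their means were 0.923, 0.424 and 0.0340 at positions 1203, 1384 and 1687, and on the first 0.950, 0.534 and 0.0299 at positions 506, 687 and 990. This order held in each library. The AGACT site nearest the 5′ end was also the highest of its motif on both transcripts in each library. The GGACC sites ran the other way, with 0.147 at position 1313 and 0.269 at position 1567.

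Sites of unlike fraction lay close together. The 8 sites occupy 484 nt, with gaps of 25 to 120 nt between neighbours. The closest pair, the GGACT at position 1384 and the AGACT at position 1409, lay 25 nt apart with means of 0.424 ± 0.0133 and 0.0793 ± 0.0248 (each SD, n = 2), and the libraries did not overlap.

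The range over sites of a single motif was then set beside other transcripts, a comparison chosen after the values were seen. Among 70 transcripts with at least 3 shared GGACT sites, the Id2 transcripts had the widest ranges, 0.920 on the first and 0.889 on the second. The next was Ppp1cc with 0.885, and the median over the 68 other transcripts was 0.445. This order depended on library and coverage: in replicate 2 alone the Id2 transcripts ranked 2 and 5 of 70, and without a coverage minimum they ranked 11 and 19 of 375. For AGACT the range was 0.637 on the second transcript and 0.420 on the first, against a median of 0.409 over 19 other transcripts.

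**Figure D2:**
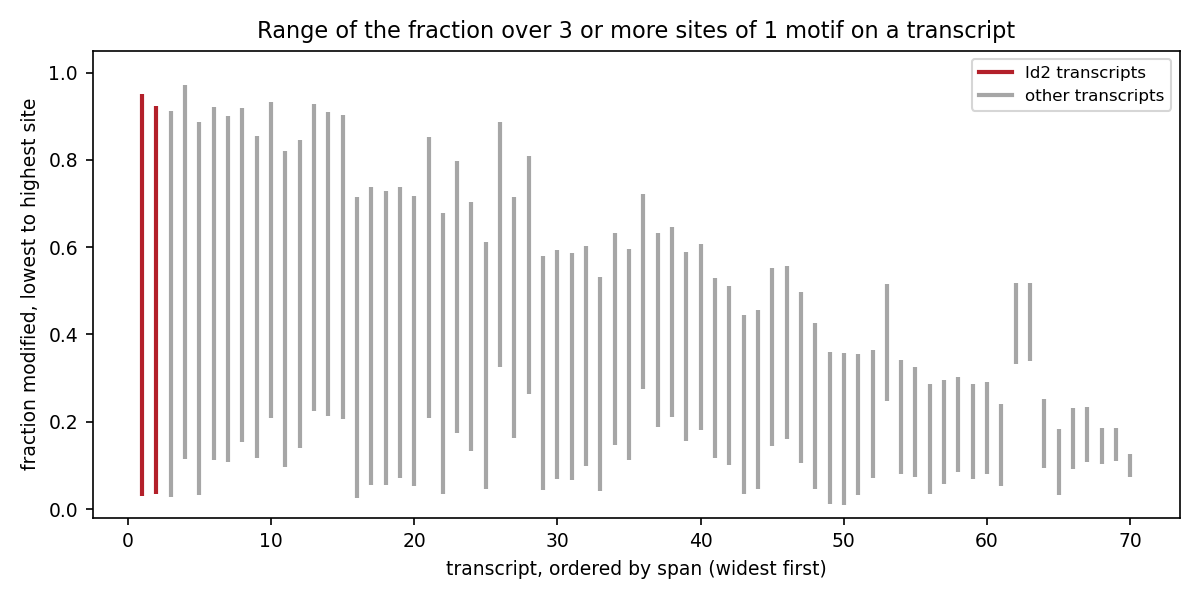
Lowest to highest mean fraction (vertical axis, 0 to 1) over the GGACT sites of each of 70 transcripts with 3 or more shared GGACT sites, ordered along the horizontal axis by the width of the range. The Id2 transcripts, in red, are the widest at 0.920 and 0.889 for the mean of both replicates, and the other transcripts are grey.

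The 2 Id2 transcripts were compared next. All 8 shared sites of the first recur on the second with the same motif, each 697 nt further along, so the pairs were taken as the same bases of the gene. Their reads may be divided between the transcripts by the alignment, whose handling of reads that fit both is not given. At these bases the second transcript had 3.53 to 3.8 times the coverage of the first in replicate 1 and 3.48 to 3.75 times in replicate 2.

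The mean fraction over the 8 bases was 0.315 on the first and 0.317 on the second transcript in replicate 1, and 0.384 and 0.337 in replicate 2. The mean difference, first minus second, was -0.0026 in replicate 1 and 0.0466 in replicate 2, or 0.0220 ± 0.0348 (SD, n = 2). The sign turned between libraries, and the exact paired permutation test over the 2 libraries (two-sided) gave p = 1, where 0.5 is the smallest value it can give. The mean difference was smaller than its SD over the replicates. With 2 libraries the test cannot detect a difference, so its p says nothing of whether the transcripts are equal.

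Single bases varied more. An AGACT at position 573 of the first transcript had 0.429 and 0.615 in replicates 1 and 2, against 0.7 and 0.679 at the same base of the second, a mean difference of -0.167 ± 0.147 (SD, n = 2). A GGACT at position 687 had 0.615 and 0.452, against 0.414 and 0.433, a mean difference of 0.110 ± 0.129 (SD, n = 2). A GGACC at position 870 had 0.269 and 0.489, against 0.235 and 0.304, a mean difference of 0.110 ± 0.107 (SD, n = 2). All 3 kept their direction in both libraries, and the values of the 2 transcripts did not overlap at position 573 or 687 but did at 870. They were named for a mean difference over 0.1 in size, which itself favours a kept direction. The smaller library difference was -0.0635 at position 573 and 0.0193 at 687, both in replicate 2, and 0.0345 at 870 in replicate 1.

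The remaining 5 bases differed by means of 0.0041 to 0.0555 in size. The highest of them, the GGACT at position 506, had 0.900 and 1 on the first transcript against 0.918 and 0.928 on the second. In all, 3 of 8 Id2 bases differed by more than 0.1, where 14.6% of 96 such pairs in 25 genes did. Those 96 include the Id2 pairs, and the median difference in size was 0.0413 for Id2 and 0.0385 for the other 24 genes. The pairs were not matched for depth. The first Id2 transcript had 35 to 40 reads at these bases in replicate 1, and its own replicates differed by a median of 0.109. The direction was the same in both libraries at 4 of the 8 bases and turned at as many, so a kept direction does not mark out a base. Besides the 3 bases above it was kept at the AGACT at position 829. That base had 0.0938 and 0.121 on the first transcript against 0.0410 and 0.0631 on the second.

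**Figure D3:**
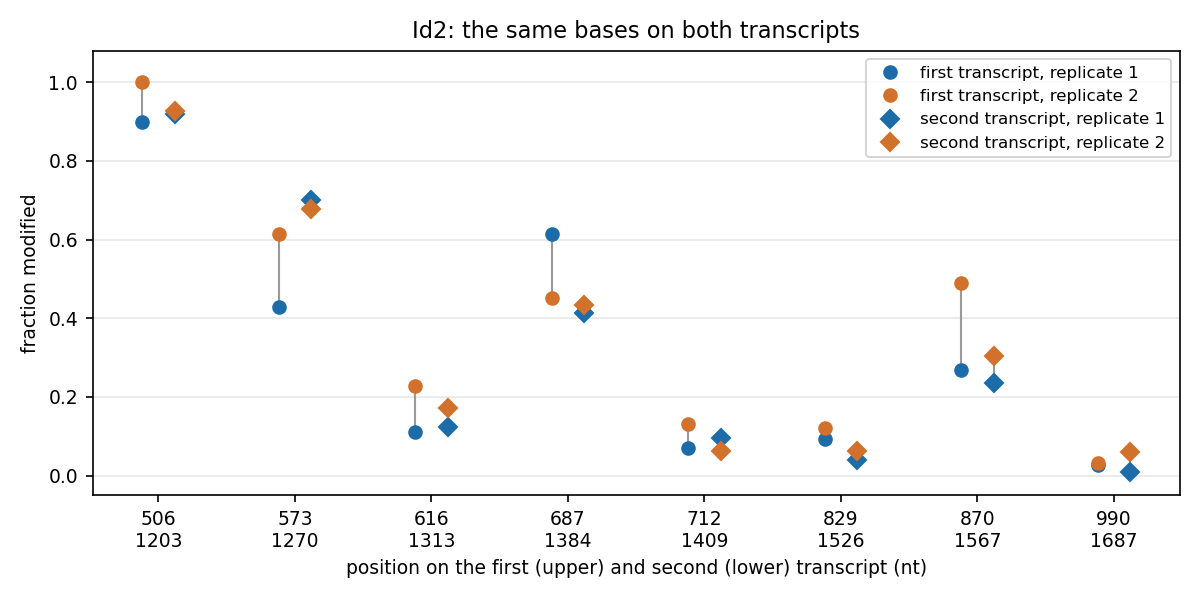
Fraction modified (vertical axis, 0 to 1) at the 8 bases that the 2 Id2 transcripts share. Circles are the first and diamonds the second transcript, blue is replicate 1, orange is replicate 2, and grey lines join the replicates. The replicates of the second transcript, with at least 133 reads at each of these bases, lie closer together than those of the first, with 35 to 75 reads, at 7 of the 8 bases and further apart at positions 990 and 1687.

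The first transcript had the same highest and lowest base as the second by mean fraction. In each library, 4 of the 8 bases held another rank than on the second. Position 506 was highest at 0.950 ± 0.0707 and position 990 lowest at 0.0299 ± 0.0041 (each SD, n = 2). Positions 687, 573 and 870 overlapped from each to the next, as did 616, 829 and 712. The median difference between replicates was 0.109 here and 0.0286 on the second transcript.

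Id2 also had 3 positions listed in a single library. The GGACA at position 409 of the first transcript had 0.256 at a coverage of 68 reads in replicate 2. Position 1106 of the second, again 697 nt further, had 0.200 at a coverage of 128 reads in replicate 1. These values stood at percentiles 17.3 and 12.6 of GGACA sites in their own library, so this base was low for its motif on either transcript. A GGACC at position 133 of the first transcript had 0.0317 at a coverage of 68 reads in replicate 2.

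Id1, on chromosome 2 from 152578171 to 152579330, encodes an inhibitor that binds E proteins as Id2 does. Its transcript ENSMUST00000038368.8 had 4 shared sites, with 25 to 28 reads in replicate 1 and 50 to 57 in replicate 2. A GGACA at position 158 had 0.750 and 0.559 in replicates 1 and 2. A GGACT at position 564 had 0.455 and 0.227, a GGACC at position 381 had 0.143 and 0.0698, and a GGACT at position 649 had 0.0500 and 0.130.

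Position 158 was the highest of these in both libraries, and positions 381 and 649 overlapped. The mean fraction over the 4 sites was 0.349 in replicate 1 and 0.247 in replicate 2, or 0.298 ± 0.0727 (SD, n = 2). At position 564 the replicates differed by 0.227. This was the largest difference of the 21 Id shared sites.

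A further pair of Id1 positions was listed in a single library each. The AGACT at position 726 had 0.923 at a coverage of 28 reads in replicate 1, at percentile 99.1 of AGACT sites there. It was not listed in replicate 2. The GGACT at position 436 had 0.0600 at a coverage of 55 reads in replicate 2. The highest fraction seen in Id1 thus rests on 1 library.

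Id3, on chromosome 4 from 135870808 to 135873066, also encodes an E protein inhibitor and had the most deeply covered Id sites. On ENSMUST00000008016.2 an AGACT at position 1017 had 0.791 in replicate 1 (187 reads) and 0.746 in replicate 2 (318 reads), a mean of 0.768 ± 0.0319 (SD, n = 2). It stood at percentile 93.6 of AGACT sites in other genes. A GGACT at position 928, 89 nt upstream, had 0.311 at a coverage of 314 reads in replicate 2 and was not listed in replicate 1.

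Id4, on chromosome 13 from 48414704 to 48419502, encodes a family member with an alanine-rich stretch and a proline-rich end, and had no shared site. Its 4 positions on ENSMUST00000021810.1 were listed in both libraries, with 14 to 19 reads in replicate 1 and 25 to 38 in replicate 2. A GGACC at position 20 had 0.5 and 0.467 in replicates 1 and 2, and an AGACT at position 922 had 0.235 and 0.344. An AGACT at position 400 had 0.0667 and 0.130, and a GGACC at position 484 had 0.143 and 0.0769. Positions 400 and 484 overlapped each other, and both lay below the other 2 in each library.

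These positions show where the coverage limit fell. The Id4 site at position 922, at 19 reads in replicate 1, was the member just outside it. The Id1 site at position 158, at 25 reads, was the one just inside.

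Across the family, the mean fraction over shared sites was 0.768 in Id3 (1 site), 0.338 ± 0.0317 in Id2 (16 sites) and 0.298 ± 0.0727 in Id1 (4 sites; each SD, n = 2). Id4 had 0.245 ± 0.0129 over its 4 positions (SD, n = 2). Id3 lay above the others in both libraries. The ranges of Id1 and Id4 overlapped, and so did those of Id2 and Id1. By the median over sites the order of these turned, with 0.223 ± 0.0614 in Id2 and 0.239 ± 0.0847 in Id1 (each SD, n = 2). These levels also rest on the choice of shared sites. With every site of at least 20 reads in a library, shared or not, Id3 had 0.791 in replicate 1 (1 site) and 0.528 in replicate 2 (2 sites), as position 928 then counted. Id1 had 0.464 and 0.209 (5 sites in each), with position 726 in replicate 1, and Id2 had 0.309 and 0.337 (17 and 18 sites). Id3 was again the highest in both libraries, whereas Id1 lay above Id2 in replicate 1 and below it in replicate 2. The genes differ in their motifs, so these levels are not like for like.

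Ranked within motif, the 21 Id sites had a median percentile of 52.3 in replicate 1 and 46.7 in replicate 2, or 49.5 ± 3.94 (SD, n = 2). Single sites ran from percentile 2.35 to 97.8. Of the 21, 16 are Id2 sites, which count 8 bases on both transcripts, and none is in Id4, and with a minimum of 50 reads the median percentile was 63.3 ± 5.13 (SD, n = 2). Median fractions by motif were 0.382 at the 8 Id GGACT sites (0.256 over all), 0.108 at the 7 AGACT sites (0.259 over all) and 0.170 at the 5 GGACC sites (0.221 over all). All but 3 of the AGACT and GGACT counts come from Id2, whose bases count on both transcripts.

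**Figure D4:**
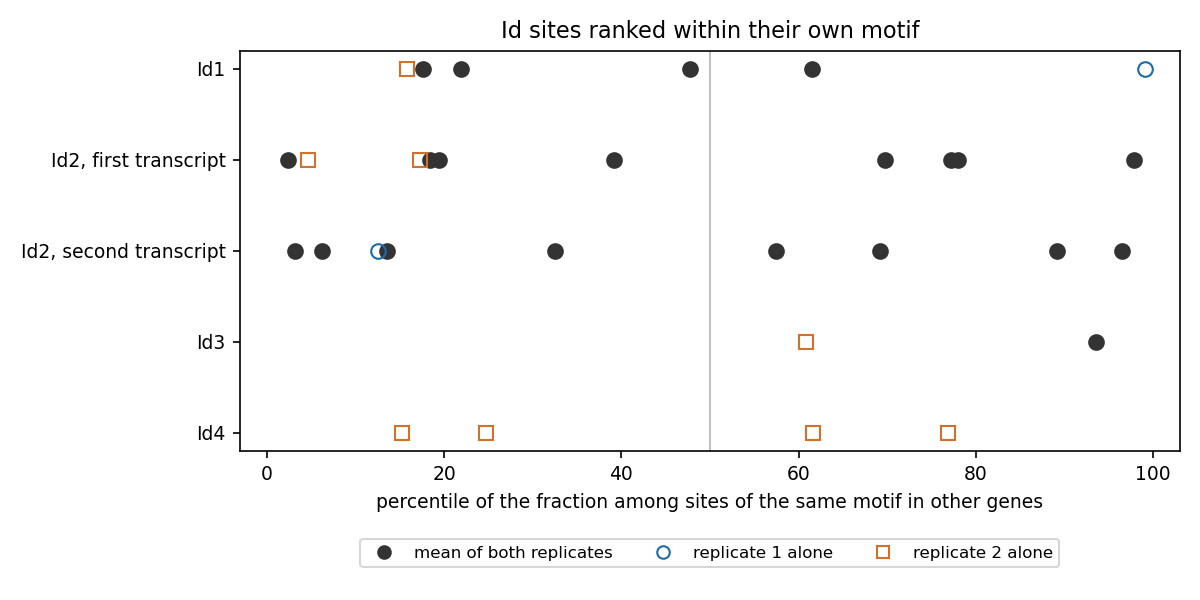
Percentile of the fraction of each Id site among sites of the same motif in other genes (horizontal axis, 0 to 100), by transcript. Filled circles use the mean of both replicates, and open symbols mark positions with at least 20 reads in 1 replicate only. Id2 spreads from percentile 2.35 to 97.8, and the Id3 site at 93.6 lies in the upper tail.

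The replicates were compared at all 21 sites. The median difference in size was 0.0610, against 0.0517 over all 5221 shared sites. A difference over 0.1 was seen at 6 of 21 Id sites, against 26.3% of all shared sites, and all 6 had under 50 reads in replicate 1. The fraction was higher in replicate 2 at 13 of 16 Id2 sites, where each base counts on both transcripts, and at 1 of 4 Id1 sites, against 2390 of all 5221 shared sites.

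Depth separated the Id sites into 2 classes. At the 12 with 20 to 49 reads in the shallower library the median difference was 0.109 (0.0643 over all sites of that depth), and at the 9 with at least 100 reads it was 0.0351 (0.0245 over all). Sampling of every covering read sets a lower limit on the expected spread. The difference exceeded 2 such SDs at 4 of 21 Id sites, against 11.1% of all shared sites. These were positions 506, 870 and 1687 of the Id2 transcripts and position 564 of Id1. At position 870, 0.2692 in replicate 1 is not a whole number of its 40 covering reads. The fraction there was thus not a share of every covering read, so the limit may be too low. How many of the 4 exceed the sampling of the reads used is unknown. Coverage in replicate 2 was 1.70 to 2.04 times that in replicate 1 at the Id sites.

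Some Id positions were missing from a library that had deep coverage close by. Of 22 Id sites of replicate 1 with a position of at least 20 reads within 200 nt in replicate 2, 2 were not listed there, against 17.3% of 3632 such sites over all genes. In the other direction 3 of 22 were not listed, against 13.9% of 3632. They were positions 726 and 436 of Id1, 1106 and 409 of Id2 and 928 of Id3. The nearest deep neighbours in the library without them had 27 to 247 reads. Coverage at the absent bases themselves is not known.

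Genes that act with Id proteins were examined in 5 lists. Of the 3 E proteins, the direct binding partners, Tcf3 had 4 shared sites with a mean of 0.639 ± 0.0266 (SD, n = 2). Its highest was a GGACT at position 2656 with 0.895 and 0.796 at coverages of 28 and 60 reads. Tcf12 reached at most 7 and 17 reads in replicates 1 and 2, and Tcf4 was listed only in replicate 2, with at most 9.

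Of 18 other helix-loop-helix genes, Hes1, a Notch-induced repressor, had 5 shared sites with a mean of 0.351 ± 0.0195 (SD, n = 2). It was the only one of them with a shared site, and 4 of the 18 were listed at all. Its highest, a GGACT at position 1073, had 0.807 and 0.717 at coverages of 147 and 265 reads. Both lay below the GGACT at position 1203 of Id2 in the same library.

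Of 19 genes of the BMP to Smad input none had a shared site. Here 8 were listed, and 3 reached 20 reads in replicate 2, namely the receptor genes Bmpr1a (50 reads) and Bmpr1b (20 reads) and the signal transducer Smad4 (55 reads). Of 11 targets and bound partners, Ccnd1, the G1 cyclin D1, had 3 shared sites from 0.0476 to 0.907 with a mean of 0.382 ± 0.0445 (SD, n = 2). The list of ubiquitin turnover held 4 symbols, but Cdh1 is the mouse symbol of E-cadherin and had no listed position. Of the other 3, Fzr1 had 3 shared sites with a mean of 0.229 ± 0.0407 (SD, n = 2). Usp1, a deubiquitinase known to stabilise Id proteins, had 1, with 0 and 0.121 at coverages of 20 and 43 reads. The median fraction over all shared sites was 0.368.

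Genes most like a member were taken as those with the closest lowest, median and highest fraction over their shared sites, within 2 of the same number of sites. For the second Id2 transcript, 123 genes were candidates and the closest was Prmt7, whose 6 sites ran from 0.0238 to 0.942 with a median of 0.191, against 0.0340, 0.923 and 0.208 in Id2. Lhx2 with 7 sites and Mknk2 with 7 followed. For Id1, with 1148 candidates, the closest were Cox19, Map2k2 and Mrpl20.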

How the data were processed

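Native poly(A) RNA of 2 wild-type organoid libraries was sequenced with nanopores. The authors deposited, per the file headers, a fraction modified between 0 and 1 and a coverage, a whole-number read count, for each position of an Ensembl transcript. No listed position had under 5 reads. The fraction's denominator, the base caller, the aligner and the modification caller are not given in the sources used here. Several fractions, such as 0.2564 at a coverage of 68, are no whole number of the covering reads, so coverage is not their denominator. No counts of modified reads are therefore given, and no interval was set for a fraction. The submitters' processing notes name mm10, yet none of the 4 Id genes starts where RefSeq places it in GRCm38.p6. Gene coordinates are therefore printed as deposited, build not named. Placement in coding or untranslated sequence was not analysed here.

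Positions (the end of each 1-base interval) were matched on transcript and position, with a minimum of 20 reads in each library. Means carry the SD over n = 2. Transcripts were paired where at least 3 sites of the same motif shared an offset. Percentiles count ties as half-ranks. The sampling SD used the fractions of both libraries weighted by coverage. It assumes that every covering read entered the fraction, which did not hold at several positions. Functions were tested on simulated data. Python 3.11.15, pandas 2.3.3, numpy 2.4.6 and matplotlib 3.10.9 were used.

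Members, lists and tests were chosen with earlier results of these data known. Named from the lists are genes with a shared site, at most 6 per list, and those singled out for depth after their values were seen. Alternatives were the coverage minimum, 1 transcript per gene, matching within 5 nt, weighting, the median, the motif and each replicate alone.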

Additional observations from a re-analysis of the deposited data

How the results depend on the processing

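With a minimum of 50 reads, 9 Id sites were shared in place of 21. Those were the 8 of the second Id2 transcript and 1 of Id3, so Id1 then gave no mean and the Id2 transcripts no comparison. The median difference between replicates was then 0.0351 in place of 0.0610, and the median percentile within motif 63.3 in place of 49.5. With no minimum 25 sites were shared and the difference was 0.0637. Keeping 1 transcript per gene left 13 shared sites and a difference of 0.0473. Over all sites whatever the motif the median percentile was 34.8. The median over the Id2 sites was 0.223, against a mean of 0.338. With every site of each library, shared or not, the Id3 mean was 0.660 in place of 0.768. For these changes the cause was not tested beyond the number of sites kept. Leaving out a replicate cannot move a mean of 2 by more than 1 SD. The mean difference between the Id2 transcripts ran from -0.0026 to 0.0466 that way. The alternatives for the motif range, the neighbour distance and the sites not shared were chosen after seeing the data. No paired comparison of groups could be made, as the samples form 1 group. Depth limits Id4 most, with at most 19 reads at a position in replicate 1, then Id1 (28) and the first Id2 transcript (40).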
